A study of Arabidopsis thaliana with 14 samples.

Results

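The 9 genes described here form a growth module of helix-loop-helix (HLH) proteins in Arabidopsis: PRE1, PRE5 and PRE6, the inhibitors IBH1 and AIF1, and the activators HBI1, BEE1, BEE2 and BEE3. They were chosen by name, as the count rows of those 9 loci, out of 34218 genes in the count files, and all 9 passed the filter on low counts that left 20077 genes tested. RNA sequencing measured their transcripts in rosette leaves of ft-10 plants, a line with a lesion in the flowering gene FT that every group carried, so no group had a working FT gene for comparison. All plants were 30 days old at injection and were grown in soil at 22 °C under days of 16 h light and nights of 8 h. Leaves received a silk microneedle loaded with 15 mM of the gibberellin GA3 for 3 h (n = 3), 24 h (n = 3) or 168 h (n = 2), an empty silk needle for 24 h (mock, n = 3), or no injection (untreated 0 h, n = 3). The design text calls the replicates biological but does not say which came from separate plants. Only at 24 h was there a mock group, so needle, GA3 and elapsed time cannot be told apart at 3 h and 168 h. The labels give no hour of the day for any group.

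The module is known from work in Arabidopsis as a chain of antagonists. PRE proteins are small HLH proteins without a DNA-binding basic region, named for resistance to the gibberellin synthesis inhibitor paclobutrazol, and their genes are induced by gibberellin and brassinosteroid. They bind IBH1 and the AIF proteins, which would otherwise bind and block DNA-binding bHLH activators such as HBI1 and the brassinosteroid-induced BEE factors. The activators promote cell elongation in hypocotyls, petioles and leaves, so PRE proteins favour growth and IBH1 and AIF1 restrain it.

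Upstream sequence is shown for BEE1 and BEE3, whose windows shared more runs of bases than any other pair of the 9, and for the inhibitors IBH1 and AIF1, which were called in opposite directions at GA3 168 h. These windows were chosen after their sequences and values were seen. All windows are the 250 bases before the annotated gene start in the RefSeq annotation of TAIR10.1, written 5′ to 3′ on the strand of the gene. Capitals in the BEE1 and BEE3 windows mark 5 runs of at least 8 bases that occur in both windows in the same order. The BEE1 window lies at chr1:6331148-6331397 (plus strand) and the BEE3 window at chr1:27759691-27759940 (plus strand).
BEE1: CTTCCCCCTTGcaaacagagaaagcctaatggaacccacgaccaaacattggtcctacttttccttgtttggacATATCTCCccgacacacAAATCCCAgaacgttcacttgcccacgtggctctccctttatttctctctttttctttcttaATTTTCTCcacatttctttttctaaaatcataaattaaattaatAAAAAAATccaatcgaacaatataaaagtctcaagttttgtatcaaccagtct
BEE3: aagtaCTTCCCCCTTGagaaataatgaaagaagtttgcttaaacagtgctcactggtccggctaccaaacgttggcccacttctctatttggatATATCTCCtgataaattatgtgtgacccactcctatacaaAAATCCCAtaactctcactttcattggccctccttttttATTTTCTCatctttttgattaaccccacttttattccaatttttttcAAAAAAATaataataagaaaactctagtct
The longest shared run, of 11 bases, began 250 bases before the start of BEE1 and 245 before that of BEE3. A longest shared run of 11 bases was also found in 3 other pairs of windows. With runs in any order counted, this pair shared 7 runs, against 0 to 5 in the other pairs of the 9 windows. The BEE1 window holds a G-box (CACGTG), and the HBI1 window holds CGTGTG, a brassinosteroid response element. Each is shown in capitals with 12 bases on either side, at chr1:6331250-6331279 (plus strand) and chr2:7954839-7954868 (minus strand).
BEE1 G-box: cgttcacttgccCACGTGgctctcccttta
HBI1 response element: gcgtataaaaaaCGTGTGgtaccattttga
Both strands were searched for the G-box, for CGTGTG and for the related element CGTGCG, and the matches did not overlap one another. These motifs are bound by brassinosteroid-regulated factors, and the G-box also by phytochrome-interacting factors. Of the 9 windows, 2 held at least 1 of these motifs, against 12.4% of the windows of 19969 tested genes. The G-box occurred in 7.43% of those windows, CGTGTG in 5.52% and CGTGCG in 1.65%. The windows of the inhibitors held no match to these letters. The IBH1 window is chr2:17908757-17909006 (plus strand) and the AIF1 window chr3:1726901-1727150 (plus strand).
IBH1: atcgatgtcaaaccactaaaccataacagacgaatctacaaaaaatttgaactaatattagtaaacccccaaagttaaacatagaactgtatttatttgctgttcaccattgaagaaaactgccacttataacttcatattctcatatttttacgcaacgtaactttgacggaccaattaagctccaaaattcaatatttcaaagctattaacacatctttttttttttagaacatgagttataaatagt
AIF1: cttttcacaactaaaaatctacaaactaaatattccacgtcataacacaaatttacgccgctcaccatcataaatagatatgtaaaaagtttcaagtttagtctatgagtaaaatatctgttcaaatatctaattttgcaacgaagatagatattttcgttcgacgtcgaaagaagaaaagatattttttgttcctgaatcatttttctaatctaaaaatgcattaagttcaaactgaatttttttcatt

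Libraries held 20448913 to 26537437 reads, of which 88.8% to 95.8% were counted in genes. GA3 3 h replicate 3 and untreated replicate 3 stood apart, with 4.65% and 3.43% of reads mapping to several places against a median of 1.095% over all libraries. Calls on the 9 genes that end without these 2 libraries are given with their values. Leaf markers were present: 5 mesophyll genes together stood at 17664 to 55839 CPM (counts scaled to a common library size), while no single gene of the flower, shoot meristem and root lists exceeded 0.75 CPM in any library. WUS, CLV3, LFY, PLT1 and RHD6 had 0 counts in every library. Each edgeR adjusted p below is a quasi-likelihood test's p after Benjamini-Hochberg correction across 20077 genes, and a change is called where the adjusted p is under 0.05. CPM uses TMM factors, log2 fold changes are given ± SE, and group means ± SD. With total counts in place of TMM factors the median log2 fold change of all genes moved by 0.20 at GA3 168 h against untreated, where 4106 genes were then called higher and 2410 lower, against 3035 and 3237 with TMM factors. It moved by 0.24 at GA3 168 h against GA3 24 h (3972 higher and 2160 lower, against 2067 and 2789), by 0.12 at GA3 3 h against untreated (2031 and 786, against 1716 and 1132) and by -0.16 at GA3 24 h against GA3 3 h (756 and 1829, against 1141 and 1149).

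Across the 7 comparisons, 13 of 63 tests on the 9 genes passed the threshold, where 0% to 31.2% of all genes were called in each comparison, and they belonged to 5 genes: IBH1, AIF1, BEE1, BEE2 and BEE3. At 168 h of GA3 the largest differences were seen, with IBH1 4.53-fold higher than in untreated leaves and AIF1, BEE1, BEE2 and BEE3 lower. AIF1 was lower at 24 h with either needle. BEE1 was lower at 3 h of GA3. The 3 PRE genes and HBI1 passed the threshold in no comparison. Libraries of the groups did not overlap for 2 of the 9 genes between GA3 24 h and mock 24 h (13.9% of all genes), for 2 between mock 24 h and untreated (24.9%) and for 4 between GA3 3 h and untreated (32.9%). They did not overlap for 3 between GA3 24 h and untreated (27.9%), 6 between GA3 168 h and untreated (56.3%), 1 between GA3 24 h and GA3 3 h (31.8%) and 5 between GA3 168 h and GA3 24 h (54.5%).

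**Figure D1:**
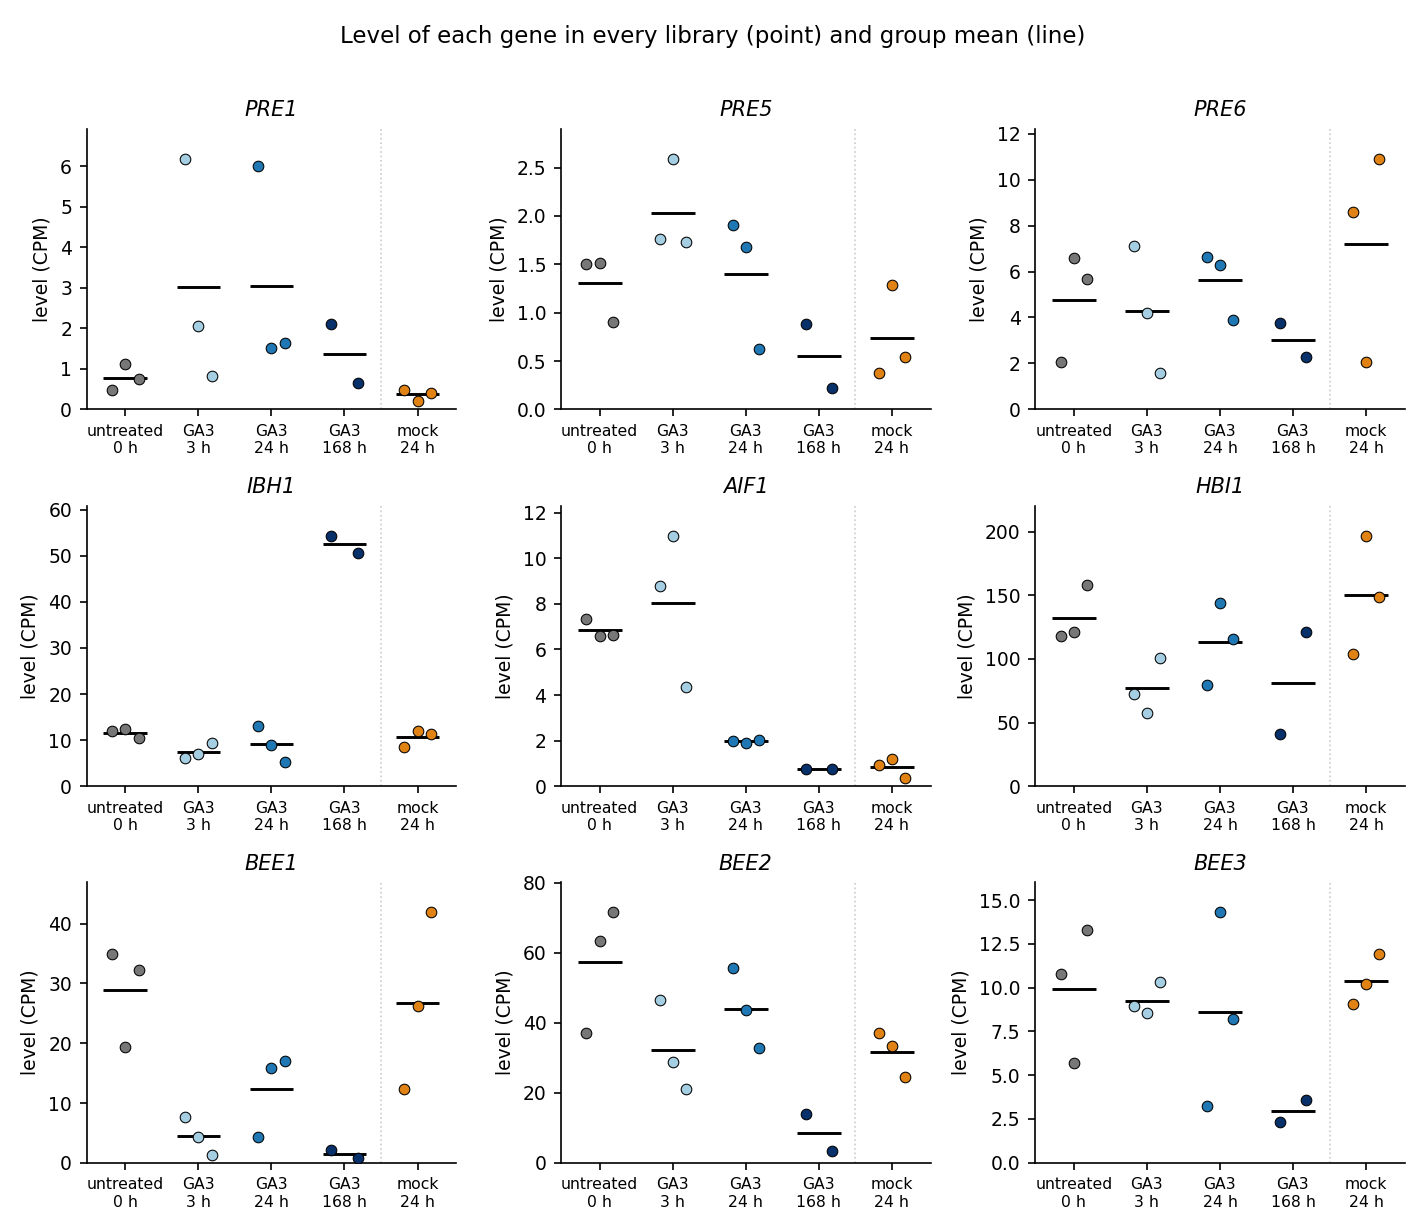
Level of each gene in CPM (vertical axes, each from 0) in the 14 libraries, by group; points are libraries and lines are group means. IBH1 at GA3 168 h stands at 54.4 and 50.6 CPM, above all other libraries, while AIF1 lies at or below 2.02 CPM in all GA3 24 h, GA3 168 h and mock 24 h libraries.

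PRE1 (AT5G39860, chr5:15957368-15958559) had few reads, from 4 to 140 per library. In the time series it stood at 0.487, 1.11 and 0.742 CPM in untreated leaves, 6.18, 2.05 and 0.822 CPM at GA3 3 h, 6, 1.52 and 1.63 CPM at GA3 24 h, and 2.1 and 0.652 CPM at GA3 168 h. Mock 24 h libraries had 0.484, 0.215 and 0.405 CPM. All 3 GA3 24 h libraries lay above all 3 mock 24 h libraries, and 1 library of about 6 CPM raised the mean at both 3 h and 24 h of GA3. Against mock at 24 h the GA3 log2 fold change was 3.03 ± 0.85, with an unadjusted p of 0.00379 and an edgeR adjusted p of 0.704 (DESeq2 adjusted p = 0.0662), so the gene was not called. Without GA3 24 h replicate 1 it was 2.08. At GA3 3 h against untreated the log2 fold change was 1.94 ± 0.79 (edgeR adjusted p = 0.119), and 0.85 without GA3 3 h replicate 1. At GA3 24 h against untreated it was 1.96 ± 0.79 (edgeR adjusted p = 0.164), and 1.01 without GA3 24 h replicate 1.

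PRE5 (AT3G28857, chr3:10855623-10856787) was also low, with 5 to 53 reads per library. Its levels were 1.5, 1.51 and 0.902 CPM in untreated leaves, 1.76, 2.59 and 1.73 CPM at GA3 3 h, 1.91, 1.68 and 0.624 CPM at GA3 24 h, and 0.883 and 0.217 CPM at GA3 168 h. With the mock needle it had 0.376, 1.29 and 0.54 CPM. GA3 3 h libraries all exceeded the untreated ones and GA3 168 h libraries all lay below them, but the fitted changes were 0.63 ± 0.58 and -1.24 ± 0.70 on the log2 scale (edgeR adjusted p = 0.511 and 0.197). At GA3 168 h against untreated PRE5 was -2.56 without GA3 168 h replicate 1 and -0.61 without replicate 2. GA3 24 h and mock 24 h overlapped (log2 fold change 0.93 ± 0.60).

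PRE6 (AT1G26945, chr1:9351160-9352833, also named KIDARI) was the most abundant of the 3 per length, and its replicates were widely spread. It stood at 2.04, 6.57 and 5.67 CPM in untreated leaves, 7.1, 4.2 and 1.6 CPM at GA3 3 h, 6.65, 6.30 and 3.89 CPM at GA3 24 h, and 3.74 and 2.26 CPM at GA3 168 h. Mock 24 h libraries held both a low value and the highest of all, with 8.61, 2.04 and 10.9 CPM. No neighbours in the order of its group means were free of overlap, and the log2 fold change of GA3 24 h against mock was -0.36 ± 0.63. Of the other PRE genes, PRE3 and PRE4 had 0 counts in every library, and PRE2, the other PRE gene tested, which was named after its values were seen, averaged 3.03 ± 1.09 CPM at GA3 3 h and 1.20 ± 0.352 CPM in untreated leaves (log2 fold change 1.33 ± 0.60, edgeR adjusted p = 0.159).

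IBH1 (AT2G43060, chr2:17909007-17910210), the HLH inhibitor that PRE1 binds, was the gene that rose. It had 12, 12.3 and 10.4 CPM in untreated leaves, 6.18, 6.93 and 9.32 CPM at GA3 3 h, 13.1, 8.97 and 5.33 CPM at GA3 24 h, and 54.4 and 50.6 CPM at GA3 168 h. With the mock needle it had 8.39, 11.9 and 11.4 CPM. Both GA3 168 h libraries lay far above the other 12, and the GA3 3 h libraries lay below the untreated ones. The rise at GA3 168 h was 2.18 ± 0.30 against untreated (edgeR adjusted p = 0.000786) and 2.52 ± 0.31 against GA3 24 h (edgeR adjusted p = 0.000985) on the log2 scale. At GA3 3 h the change against untreated was -0.63 ± 0.28 (edgeR adjusted p = 0.15). Both called rises held in all 5 fits that left out 1 library, at 2.11 to 2.22 and at 2.25 to 2.88.

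AIF1 (AT3G05800, chr3:1727151-1728365), a related inhibitor, followed another course. It stood at 7.35, 6.57 and 6.63 CPM in untreated leaves, 8.78, 11 and 4.35 CPM at GA3 3 h, 2, 1.89 and 2.02 CPM at GA3 24 h, and 0.757 and 0.738 CPM at GA3 168 h. Mock 24 h libraries had 0.914, 1.18 and 0.36 CPM. Untreated and GA3 3 h libraries overlapped and were the high ones, while every library of 24 h or later was lower, and GA3 24 h lay above mock 24 h with no overlap. The mock needle at 24 h gave -3.07 ± 0.41 against untreated (edgeR adjusted p = 0.0135, and 0.0512 and 0.0513 without untreated replicate 2 or 3). In that comparison 0.169% of all genes were called lower and 0.777% in either direction, and AIF1 was the only one of the 9 called. Here elapsed time and injection cannot be told apart. The epidermis marker ATML1 was lower in the same comparison (-1.13 ± 0.18, edgeR adjusted p = 0.0184), a call lost under 5 settings (adjusted p = 0.0665 to 0.11). The clock gene GI was higher (1.92 ± 0.39, edgeR adjusted p = 0.0497), a call lost under 9 settings, every single left-out library among them (adjusted p = 0.0503 to 0.213). Epidermis markers summed to 181 to 289 CPM at mock 24 h and 342 to 480 CPM in untreated leaves, with no overlap. Mesophyll markers summed to 31552 to 42501 CPM at mock 24 h and 43156 to 54423 CPM in untreated leaves, also with no overlap. The part of these values in the AIF1 result was not tested.

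GA3 at 24 h against untreated gave AIF1 a log2 fold change of -1.80 ± 0.39 (edgeR adjusted p = 0.0252), again as the only one of the 9 called, where 4.93% of all genes were called and 2% were lower. That call was lost without untreated replicate 2 (0.0611) or 3 (0.0928), without GA3 24 h replicate 1 (0.0738) or 2 (0.0886), without both libraries of most multimapping reads (0.0607) and in a fit of those groups alone (0.0542), while the fitted change stayed between -1.84 and -1.63. Against GA3 3 h, GA3 24 h gave -2.03 ± 0.39 (edgeR adjusted p = 0.00856), the only call among the 9 where 11.4% of all genes were called and 5.72% were lower. GA3 168 h gave -3.19 ± 0.49 against untreated (edgeR adjusted p = 0.00123) and -1.39 ± 0.46 against GA3 24 h (edgeR adjusted p = 0.048). The last call ended whenever any 1 library was left out, with adjusted p from 0.0695 to 0.196, in a fit of those groups alone (0.0688), with no filter (0.057) and with total counts as library size (-1.15, 0.0712). GA3 against mock at 24 h gave 1.27 ± 0.41 (unadjusted p = 0.00888, edgeR adjusted p = 0.75, DESeq2 adjusted p = 0.26), which was not called, and 0.90 without mock replicate 3.

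HBI1 (AT2G18300, chr2:7952404-7954785), the bHLH activator of cell elongation that IBH1 binds, was the most abundant of the 9 per length outside GA3 168 h. Its levels were 118, 121 and 158 CPM in untreated leaves, 72.8, 57.3 and 101 CPM at GA3 3 h, 79.4, 144 and 116 CPM at GA3 24 h, and 40.6 and 121 CPM at GA3 168 h. Mock 24 h libraries had 104, 197 and 149 CPM. The GA3 3 h libraries all lay below the untreated ones, and the 2 libraries of GA3 168 h differed widely. The GA3 3 h change was -0.78 ± 0.38 (edgeR adjusted p = 0.196) and the GA3 168 h change -0.71 ± 0.43 (edgeR adjusted p = 0.229), both against untreated. Without GA3 168 h replicate 2, the second of these was -1.75 with adjusted p = 0.0347, and without replicate 1 it was -0.14, so either library moves the value.

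BEE1 (AT1G18400, chr1:6331398-6333856), a bHLH factor of the brassinosteroid early response, had its lowest group means at GA3 168 h and GA3 3 h. It had 35, 19.3 and 32.2 CPM in untreated leaves, 7.63, 4.39 and 1.31 CPM at GA3 3 h, 4.37, 15.8 and 17.1 CPM at GA3 24 h, and 2.19 and 0.738 CPM at GA3 168 h. With the mock needle it had 12.3, 26.2 and 41.9 CPM. Untreated libraries lay above all GA3 libraries, and mock 24 h overlapped both untreated and GA3 24 h. At GA3 3 h the change against untreated was -2.70 ± 0.69 (edgeR adjusted p = 0.0239), the only call among the 9, where 14.2% of all genes were called and 5.64% were lower. The call ended without untreated replicate 3 (-2.61, 0.0633), without GA3 3 h replicate 2 (-2.70, 0.0808) and without both libraries of most multimapping reads (-2.17, 0.108), and the value was -3.36 without GA3 3 h replicate 1. Mesophyll markers summed to 25099 to 40196 CPM at GA3 3 h and 43156 to 54423 CPM in untreated leaves, and vascular markers to 233 to 260 CPM at GA3 3 h and 343 to 379 CPM in untreated leaves, neither with overlap. Epidermis markers summed to 247 to 379 CPM at GA3 3 h and 342 to 480 CPM in untreated leaves, which overlapped. In that comparison 1 of 5 mesophyll, 1 of 5 vascular and 2 of 5 epidermis genes were called lower. Over all settings these counts ranged from 0 to 3, 0 to 2 and 1 to 2, and 0 to 1 epidermis genes were called higher. The part of these marker differences in the BEE1 result was not tested.

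At GA3 168 h, BEE1 fell by 4.29 ± 0.90 on the log2 scale against untreated (edgeR adjusted p = 0.00503). Without replicate 1 of that group its value was -5.28, and without replicate 2 it was -3.76 with adjusted p = 0.0572. Against GA3 24 h it was -3.08 ± 0.86 (edgeR adjusted p = 0.0236). This second call ended without GA3 24 h replicate 2 (0.0562) or 3 (0.0657) and without GA3 168 h replicate 2 (-2.56, 0.179) and in a fit of those groups alone (0.0604), and the value was -4.07 without GA3 168 h replicate 1. GA3 24 h did not pass the test against mock (-1.11 ± 0.65) or untreated (-1.21 ± 0.66, edgeR adjusted p = 0.295). Nor did it pass against GA3 3 h (1.49 ± 0.67, edgeR adjusted p = 0.17), where the libraries overlapped.

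BEE2 (AT4G36540, chr4:17243583-17245296), the relative for which HBI1 was named, ranked second to it per length in every group but GA3 168 h. Its levels were 37, 63.4 and 71.5 CPM in untreated leaves, 46.4, 28.8 and 21.1 CPM at GA3 3 h, 55.6, 43.7 and 32.7 CPM at GA3 24 h, and 13.8 and 3.26 CPM at GA3 168 h. Mock 24 h libraries had 37.1, 33.2 and 24.6 CPM. GA3 168 h lay below every other library, and the other groups overlapped. The GA3 168 h change was -2.75 ± 0.57 against untreated (edgeR adjusted p = 0.00466), called under every alternative, at -4.14 without replicate 1 and -2.10 without replicate 2 of GA3 168 h. Against GA3 24 h it was -2.37 ± 0.56 (edgeR adjusted p = 0.0114), at -3.76 without GA3 168 h replicate 1, and not called without GA3 168 h replicate 2 (-1.71, adjusted p = 0.0767) or in a fit of those groups alone (0.0648).

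BEE3 (AT1G73830, chr1:27759941-27761588) stood at 10.8, 5.68 and 13.3 CPM in untreated leaves, 8.95, 8.54 and 10.3 CPM at GA3 3 h, 3.26, 14.3 and 8.21 CPM at GA3 24 h, and 2.35 and 3.61 CPM at GA3 168 h. With the mock needle it had 9.04, 10.2 and 11.9 CPM. GA3 168 h lay below untreated and mock libraries but overlapped 1 library of GA3 24 h. The GA3 168 h change was -1.73 ± 0.52 against untreated (edgeR adjusted p = 0.0268). That call ended without untreated replicate 3 (-1.46, 0.0771), without GA3 168 h replicate 1 (-1.46, 0.147) or 2 (-2.11, 0.0792) and without both libraries of most multimapping reads (-1.46, 0.0846). Against GA3 24 h the change was -1.52 ± 0.52 (edgeR adjusted p = 0.0517), which was not called. It was called with RLE factors (0.0491), with strand ignored (0.0492), by DESeq2 (0.0132) and without GA3 24 h replicate 1 (-1.91, 0.00676), and it was -0.94 without GA3 24 h replicate 2.

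**Figure D2:**
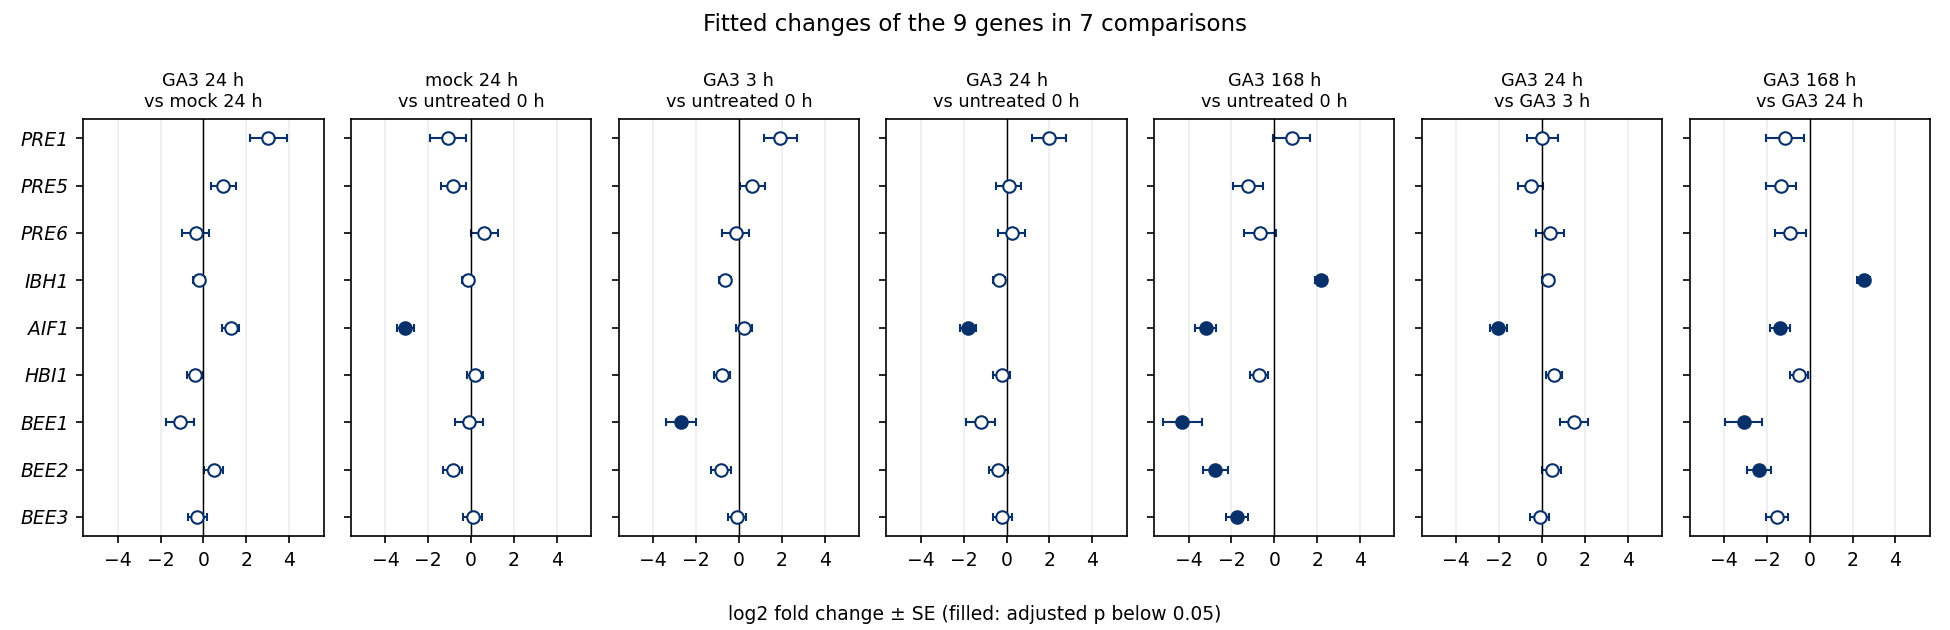
Fitted log2 fold change ± SE (horizontal axes) of the 9 genes in the 7 comparisons; filled points have an edgeR adjusted p below 0.05. IBH1 is the only filled point to the right of 0, at 2.18 and 2.52, and the GA3 24 h against mock panel has no filled point.

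GA3 against mock at 24 h is the comparison that asks what GA3 added to the needle. No member was called, and no gene at all was (0 of 20077, or 0% called, smallest adjusted p 0.0853), while 6.58% of genes had an unadjusted p under 0.05 and DESeq2 called 0.227%. Among the 9, PRE1 and AIF1 had an unadjusted p under 0.05 and were also the only ones whose libraries did not overlap, both being higher with GA3, where 13.9% of all genes did not overlap. The median log2 fold change of the 9 was -0.21, against -0.00 over all tested genes. The other inhibitory HLH genes had a median of 0.44 over 7 tested genes, the other activating bHLH genes -0.38 over 7 and the cell expansion genes 0.29 over 10, with none called in any of these lists.

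At GA3 168 h against untreated, 5 of the 9 genes were called, 1 higher and 4 lower, where 31.2% of all genes were called, 15.1% higher and 16.1% lower. Their median log2 fold change was -1.24, against 0.01 over all tested genes. Against GA3 24 h, 4 were called, where 24.2% of all genes were called, 10.3% higher and 13.9% lower, and the median was -1.34. The untreated and GA3 24 h libraries each serve in several of these comparisons, so the comparisons are not independent. Leaf mesophyll markers summed to 17664 to 23570 CPM at GA3 168 h and 43156 to 54423 CPM in untreated leaves, with 4 of 5 called lower, among them the light-harvesting gene CAB1 (-2.72 ± 0.36). Of 5 epidermis markers, summed at 136 to 138 CPM at GA3 168 h and 342 to 480 CPM in untreated leaves, 4 were lower, including ATML1 (-1.84 ± 0.21). The vascular list had 3 of 5 lower, with sums that overlapped. Over all settings 2 to 4 mesophyll, 2 to 5 epidermis and 0 to 3 vascular genes were called lower, and all 3 vascular calls ended without GA3 168 h replicate 2. The guard cell list had 1 of 3 called higher and 0 lower, the potassium channel gene KAT1, at 2.51 ± 0.40 and 1.68 without GA3 168 h replicate 2. Only 33.3% of that list had a log2 fold change above 0, and its median was -0.59. In whole leaves, fewer cells of a type and less RNA per cell cannot be told apart, and the part of these shifts in the results on the 9 genes was not tested.

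Per length, the balance of the module differed most at GA3 168 h. Untreated leaves held 67.2 ± 11.5 CPM per kb of exon of HBI1, followed by BEE2 at 42.1 ± 13.2, BEE1 at 18.7 ± 5.43, IBH1 at 9.63 ± 0.831, BEE3 at 8.90 ± 3.49, AIF1 at 5.64 ± 0.356, PRE6 at 4.51 ± 2.28, PRE5 at 1.43 ± 0.384 and PRE1 at 0.911 ± 0.366. At GA3 168 h IBH1 led with 43.6 ± 2.18 CPM per kb, beside 40.9 ± 28.8 for HBI1 and 6.26 ± 5.47 for BEE2, and the libraries of IBH1 and HBI1 overlapped. The level ratio of IBH1 to HBI1 per kb was 2.19 and 0.686 at GA3 168 h, and 0.167, 0.166 and 0.108 in untreated leaves. Over the 12 other libraries that ratio spanned 0.0749 to 0.269, so neither GA3 168 h library fell within it, although HBI1 itself was low in only 1 of them. IBH1 made up 51.9% and 37.2% of the summed per-kb level of the 9 genes at GA3 168 h, and 3.88% to 9.46% elsewhere. The 3 BEE genes summed to 13.7 and 6.11 CPM per kb at GA3 168 h, against 59.5, 64.2 and 85.3 in untreated leaves. The 3 PRE genes summed to 6.97 and 3.14 CPM per kb at GA3 168 h, against 4.15, 9.18 and 7.24 in untreated leaves, and these overlapped.

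**Figure D3:**
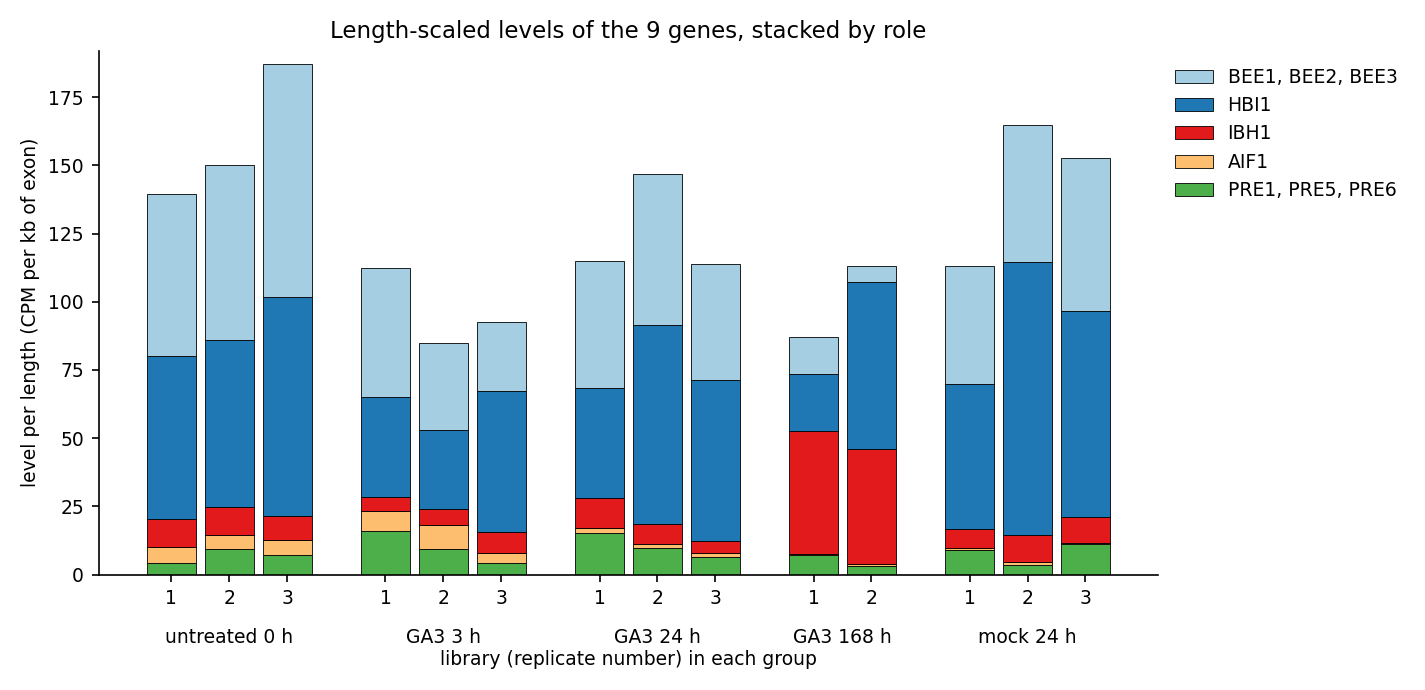
Summed level per length (CPM per kb of exon, vertical axis from 0) of the 9 genes in each library, stacked by role. The IBH1 block reaches 45.2 and 42.1 at GA3 168 h, where the BEE block is 13.7 and 6.11.

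The order of the group means differed from gene to gene. IBH1 was highest at GA3 168 h, and none of its other neighbours in the order was free of overlap. AIF1 was highest at GA3 3 h, which overlapped untreated leaves, while untreated leaves lay above GA3 24 h, and GA3 24 h above mock 24 h, with no overlap. BEE2 was separated only between mock 24 h and GA3 168 h, the lowest pair, and PRE1 only between untreated and mock 24 h. For PRE5, PRE6, HBI1, BEE1 and BEE3 every pair of neighbours overlapped, although the ends of the order could be far apart: the highest group mean of BEE1 was 19.7 times the lowest, against 1.95 times for HBI1.

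Other HLH genes of the same kinds did not move as 1 block. At GA3 3 h against untreated, 2 of 7 other inhibitory genes were lower and 0 higher, where 5.64% of all genes were called lower. AIF3, a close relative of AIF1, averaged 21.7 ± 0.474 CPM at GA3 3 h and 53.9 ± 8.57 CPM in untreated leaves (-1.31 ± 0.19, edgeR adjusted p = 0.00136), and AIF4 averaged 7.30 ± 1.90 CPM at GA3 3 h and 18.7 ± 2.22 CPM in untreated leaves (-1.36 ± 0.24, edgeR adjusted p = 0.0045). At GA3 168 h 1 was higher and 2 lower than in untreated leaves, where 31.2% of all genes were called. HFR1, an atypical bHLH that sequesters phytochrome-interacting factors, averaged 50.1 ± 16.2 CPM at GA3 168 h and 4.37 ± 1.29 CPM in untreated leaves (3.52 ± 0.67, edgeR adjusted p = 0.00325). IBL1, an IBH1-like gene, was lower (-2.53 ± 0.78, edgeR adjusted p = 0.0286), a call lost without untreated replicate 2 or 3 and without GA3 168 h replicate 2 (-1.91, adjusted p = 0.183), with -3.86 without GA3 168 h replicate 1. PAR1, a shade-induced HLH inhibitor, had 0 counts in both GA3 168 h libraries and averaged 2.05 ± 1.47 CPM in untreated leaves. It was called lower (edgeR adjusted p = 0.0188), a call lost when either GA3 168 h library was left out.

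GA3 24 h and mock 24 h had 0 of the 7 inhibitory genes called against untreated, with medians of -0.32 and -0.48. Of all genes, 4.93% and 0.777% were called in these comparisons. At mock 24 h 0 to 2 were called lower over all settings, and 14.3% of the 7 had a log2 fold change above 0. DESeq2 called AIF4 (edgeR -1.04 ± 0.24, edgeR adjusted p = 0.0728, DESeq2 adjusted p = 0.00456) and AIF3 (edgeR -0.65 ± 0.18, edgeR adjusted p = 0.118, DESeq2 adjusted p = 0.0426) lower there.

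Of the other activating genes, BPE, which limits petal size, was higher at GA3 168 h (6.52 ± 0.664 CPM, against 1.61 ± 1.03 CPM in untreated leaves, 2.01 ± 0.46, edgeR adjusted p = 0.00786). BPE was the only one called of 7 tested, where 15.1% of all genes were called higher and 16.1% lower. It was also called at GA3 3 h against untreated (1.66 ± 0.43, edgeR adjusted p = 0.0248), a call lost without untreated replicate 2 (0.0868) or 3 (0.0938), without GA3 3 h replicate 2 (0.0823), without both libraries of most multimapping reads (0.138) and in a fit of those groups alone (0.0761). Leaving out GA3 168 h replicate 2 ended its later call (1.86, adjusted p = 0.0545), and leaving out untreated replicate 1 gave 2.64. CIB1 had 0 counts in every library. Of 10 cell expansion genes, 6 were lower and 0 higher at GA3 168 h against untreated, where 16.1% of all genes were called lower. Their median log2 fold change was -2.68, against 0.01 over all tested genes. Over all settings the count called lower in that comparison ranged from 2 to 7. IAA19, an auxin-response gene, averaged 2.58 ± 0.696 CPM at GA3 168 h and 17.6 ± 4.81 CPM in untreated leaves (-2.77 ± 0.53, edgeR adjusted p = 0.00321). The expansin gene EXPA5 averaged 10.9 ± 1.53 CPM at GA3 168 h and 52.0 ± 13.9 CPM in untreated leaves (-2.25 ± 0.47, edgeR adjusted p = 0.00468), a call lost without GA3 168 h replicate 2 (-2.16, adjusted p = 0.0502). The cell wall gene XTH4 was also lower (-4.39 ± 1.05, edgeR adjusted p = 0.00951), at -3.52 without GA3 168 h replicate 1 and -6.98 without replicate 2. Against GA3 24 h, 5 of the 10 were lower and 0 higher at GA3 168 h (median -2.60), with 1 to 6 lower over all settings, among them IAA19 (-2.51) and EXPA5 (-2.68). Without GA3 168 h replicate 2 neither of these passed (adjusted p = 0.0784 for IAA19 and 0.0513 for EXPA5). Of all genes, 13.9% were called lower at GA3 168 h against GA3 24 h. At GA3 3 h, GA3 24 h and mock 24 h against untreated 0 of the 10 cell expansion genes were called, with medians of -0.65, 0.08 and -0.46.

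Among 15 upstream regulators, 4 were higher and 2 lower at GA3 168 h against untreated, where 31.2% of all genes were called. PIF3, a phytochrome-interacting factor, was higher (2.13 ± 0.38, edgeR adjusted p = 0.00229, and 1.5 without GA3 168 h replicate 2), as was the brassinosteroid transcription factor BES1 (0.86 ± 0.18, edgeR adjusted p = 0.0045, lost without GA3 168 h replicate 2 at 0.57). BIN2, the kinase that holds BES1 and BZR1 inactive, was lower (-1.17 ± 0.24, edgeR adjusted p = 0.00494). At GA3 3 h the brassinosteroid receptor gene BRI1 was the only one of the 15 called, at 59.5 ± 16.3 CPM against 200 ± 15.8 CPM in untreated leaves (-1.75 ± 0.22, edgeR adjusted p = 0.000803). There 14.2% of all genes were called. In GA3 24 h against untreated 2 of the 15 were higher and 1 lower, where 4.93% of all genes were called. Both counts fell to 0 in a fit of those groups alone and without untreated replicate 3. These calls, on BES1, ARF8 and ARF6, also ended without both libraries of most multimapping reads (0.0566, 0.0532 and 0.124). Against mock none of the 15 was called, where no gene at all was. At GA3 24 h against GA3 3 h 2 of the 15 were higher and 1 lower (1 to 3 and 1 to 2 over all settings). In that comparison 11.4% of all genes were called. BRI1 was among those higher (1.54 ± 0.22, edgeR adjusted p = 0.00216).

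Clock genes differed between the same groups. GI, an evening clock gene, was 3.85 ± 0.42 higher on the log2 scale at GA3 3 h than in untreated leaves. Of the 4 evening genes, 2 were called higher there (1 to 2 over all settings), where 14.2% of all genes were called. Of the 3 morning genes, LHY was 1.92 ± 0.24 lower there and PRR9 3.11 ± 0.75 higher (edgeR adjusted p = 0.0183), with a list median of -0.01. The PRR9 call was lost without untreated replicate 2 (0.0597) or 3 (0.0659) and without GA3 3 h replicate 1 (0.0507) or 2 (0.0505). At GA3 168 h all 3 morning genes were higher than in untreated leaves, among them CCA1 (1.47 ± 0.26), where 15.1% of all genes were called higher. Of the 4 evening genes, 2 were higher and 1 lower there, with a median of 0.96. ELF4, among those higher (2.50, edgeR adjusted p = 0.0497), lost its call with RLE factors (0.0518) and under other settings. At GA3 24 h CCA1 was 1.08 ± 0.23 higher than in untreated leaves, a call lost in a fit of those groups alone (0.073), without untreated replicate 2 (0.0666) or 3 (0.111), without GA3 24 h replicate 1 (0.0807) or 2 (0.0743) and without both libraries of most multimapping reads (0.0836). The evening gene GI was 2.59 ± 0.40 higher at GA3 24 h than in untreated leaves (edgeR adjusted p = 0.0109). Its call was lost without untreated replicate 3 (0.0603), without both libraries of most multimapping reads (0.0565) and in a fit of those groups alone (0.0651). Against mock at 24 h no gene at all was called, so the lack of clock calls there is not particular to the clock. Median log2 fold changes were 0.57 over the 3 morning genes and 0.38 over the 4 evening genes. The part of these clock differences in the results on the 9 genes was not tested.

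**Figure D4:**
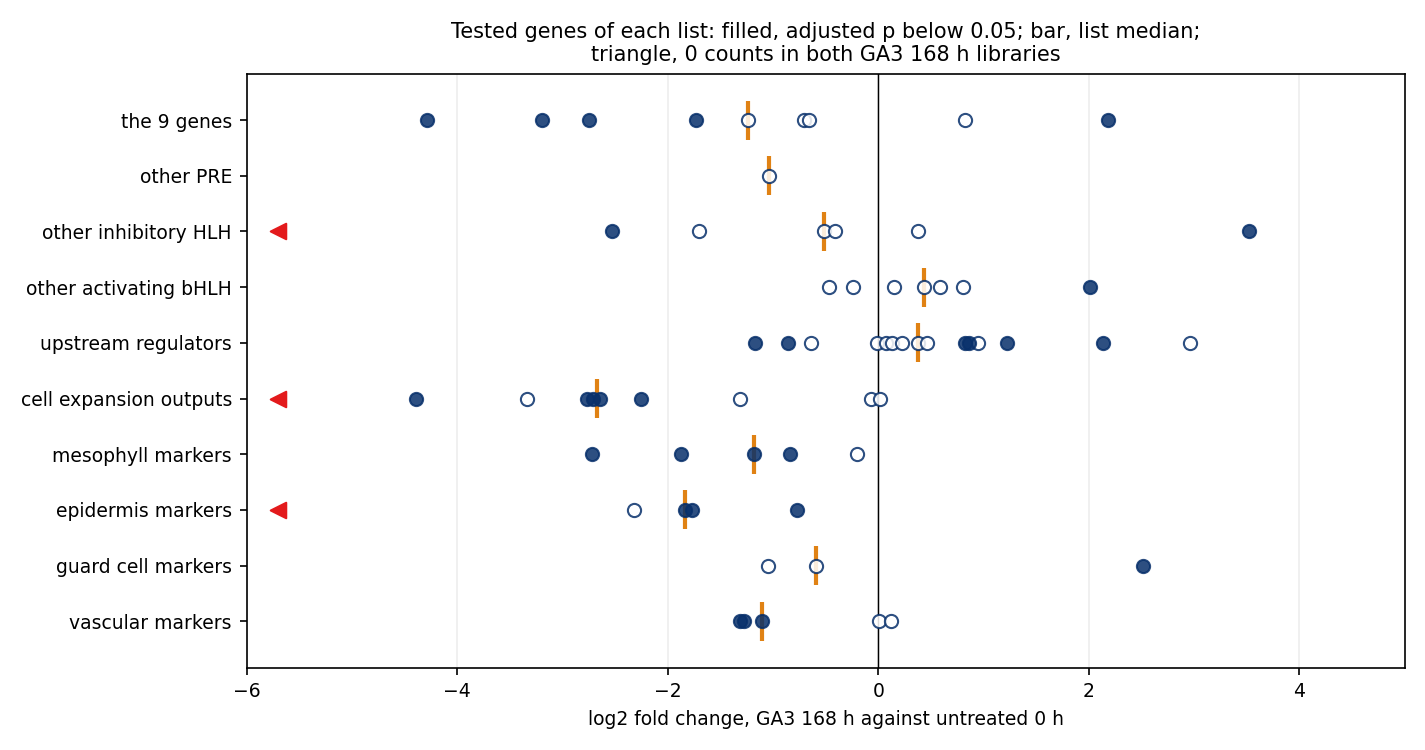
Log2 fold change of GA3 168 h against untreated 0 h (horizontal axis) for the tested genes of each list (rows); filled points have an edgeR adjusted p below 0.05, bars are list medians and triangles mark genes with 0 counts in both GA3 168 h libraries. The 9 genes span -4.29 to 2.18 around a median of -1.24, and the cell expansion genes have a median of -2.68.

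Each member's profile over the 14 libraries was also set beside 8604 tested genes that have a symbol, by the root mean square difference of log2(CPM + 0.5) after centring each gene. IBH1 had the closest match, NF-YA3 (AT1G72830), at 0.20, followed by the NAC gene NAM (AT1G52880) at 0.31, against its own SD of 0.92. For PRE1 the nearest gene was ATGA2OX1 (AT1G78440), which encodes a gibberellin-inactivating enzyme, at 0.43 with an SD of 0.96 for PRE1, and then RGF9 at 0.47. AIF1 lay nearest to HB5 (0.59) and C/VIF2 (0.60), and BEE1 nearest to ATTPPA (0.60) and TRM3 (0.66), beside SDs of 1.21 for AIF1 and 1.60 for BEE1. BEE2 was nearest to the light-harvesting gene LHCB4.3 (0.37) and to PTAC16 (0.40), HBI1 to TRM26 (0.28) and SD2-5 (0.29), and BEE3 to AT1G09970 (0.34) and HEMA2 (0.38). Their own SDs were 1.03 for BEE2, 0.59 for HBI1 and 0.71 for BEE3. PRE5 was nearest to TBL12 (0.37) and GATA11 (0.38), and PRE6 to AT5G23800 and PIN6 (0.48 each), beside SDs of 0.60 for PRE5 and 0.74 for PRE6. Among the 9 themselves, HBI1 and BEE3 were the most alike at 0.58 and IBH1 and BEE1 the least at 2.21. The libraries of a group share treatment and time in every such pair.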

How the data were processed

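The authors deposited raw read counts per gene for 14 libraries. The submitters' processing notes name STAR 2.7.7a and the genome TAIR10, while the gene annotation used for counting is not stated in them. Each deposited file has count columns for either strand and for no strand, with no header, and the stranded column that held most reads was used. The opposite strand held 4.86% to 5.51% of gene reads. Lines of reads in no gene were left out. None of the 9 genes overlaps another annotated gene. Gene positions, exon lengths and upstream windows come from RefSeq's TAIR10.1, since the deposited files hold no coordinates.

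One edgeR 4.0.16 model (R 4.3.3) held all 14 libraries (TMM factors, filterByExpr by group, 1 coefficient per group, quasi-likelihood F test, threshold 0.05 after Benjamini-Hochberg adjustment). Each SE is the absolute log2 fold change over the root of its F statistic. The group of 2 libraries borrows its spread from the others. Each p-value sets a difference between groups against the spread between these libraries as the model estimated it. The code was tested on simulated counts holding known changes.

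The 9 genes, the lists and the naming rule (up to 3 called genes with the smallest p per list, and the 2 most alike genes per member) were chosen with earlier results of these data known. Alternatives were RLE size factors, total counts, no filter (at least 1 count), replicate number as a block, strand-ignoring counts, a fit of the 2 groups alone, DESeq2 1.42.0 and each library left out. The fit without the 2 libraries of most multimapping reads was chosen after seeing the data.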

Additional observations from a re-analysis of the deposited data

Results flagged for a closer look

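Reads on the strand opposite to IBH1, which none of the comparisons use, were above the untreated level in both other groups named here. They numbered 27 and 49 at GA3 168 h, against 2 to 8 in untreated leaves, and 10 to 19 at mock 24 h. They made up 3% of the IBH1 reads of both strands at GA3 168 h, 6.11% at mock 24 h and 1.84% in untreated leaves. At GA3 3 h and GA3 24 h their share was 3.6% and 5.38%. Other members had larger shares, with counts that overlapped those of untreated leaves. BEE2 had 10.8% at GA3 168 h (1.37% untreated), AIF1 16.6% at GA3 24 h (6.4% untreated) and PRE5 16.1% at GA3 168 h (0% untreated). The opposite strand held 4.86% to 5.51% of gene reads per library over all genes. IBH1 kept its calls when strand was ignored.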

How the results depend on the processing

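Over the 7 comparisons, the 9 genes had 360 values with 1 library left out, of which 310 kept direction and side of the threshold, 21 lost a call, 2 gained one and 27 changed sign. Of 486 values under other settings, 465 kept both, 9 lost a call, 3 gained one and 9 changed sign. No called value changed sign. IBH1 at GA3 168 h (both comparisons) kept its calls under every setting run. So did AIF1 and BEE2 at GA3 168 h against untreated, and AIF1 at GA3 24 h against GA3 3 h. The cause of the other changes was not tested.

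The number of the 9 genes called was 0 without the 2 libraries of most multimapping reads for GA3 3 h and for GA3 24 h against untreated, and 0 for GA3 24 h against untreated in a fit of those groups alone, which called no gene at all (smallest adjusted p 0.0511). For GA3 168 h against GA3 24 h that kind of fit called 1. With 1 library left out the number called was 0 to 1 for mock 24 h, GA3 3 h and GA3 24 h against untreated, 4 to 5 for GA3 168 h against untreated and 1 to 4 for GA3 168 h against GA3 24 h.

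With total counts as library size, the log2 fold changes that changed sign were those of PRE6 (0.00) and BEE3 (0.02) at GA3 3 h against untreated and PRE1 (-0.11) at GA3 24 h against GA3 3 h. Without the 2 libraries of most multimapping reads they were PRE6 (0.39) and BEE3 (0.09) at GA3 3 h and PRE5 (-0.10) and BEE3 (0.06) at GA3 24 h, all against untreated, and PRE1 (-0.43) and PRE6 (-0.01) at GA3 24 h against GA3 3 h. With 1 library left out, uncalled values crossed 0 as follows. For GA3 24 h against mock, BEE3 spanned -0.86 to 0.11, IBH1 -0.56 to 0.06 and PRE6 -0.80 to 0.07. For mock 24 h against untreated, BEE1 spanned -0.57 to 0.24, BEE3 -0.21 to 0.34, IBH1 -0.23 to 0.00 and HBI1 -0.06 to 0.39. For GA3 3 h against untreated, PRE6 spanned -0.74 to 0.24, BEE3 -0.38 to 0.17 and AIF1 -0.08 to 0.52. For GA3 24 h against untreated, PRE6 spanned -0.14 to 0.55, PRE5 -0.19 to 0.45 and BEE3 -0.79 to 0.18. For GA3 24 h against GA3 3 h, PRE1 spanned -0.93 to 1.10, PRE6 -0.01 to 0.97, IBH1 -0.07 to 0.56 and BEE3 -0.69 to 0.28. For GA3 168 h, PRE1 spanned -0.27 to 1.37 against untreated and HBI1 -1.53 to 0.09 against GA3 24 h.

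Whether the replicate numbers pair the samples could not be decided. The 26 same-numbered pairs had a median correlation of deviations of 0.0499, with 10 over 0.1. The 52 other pairs had a median of -0.0393, with 14 over 0.1. These correlations are not independent: the GA3 168 h libraries gave mirrored values, for example 0.24 and -0.24 with the same other library. With the replicate number as a block, the number of the 9 genes called was the same in every comparison, for example 5 at GA3 168 h against untreated and 4 against GA3 24 h. PRE1 and PRE5 had as few as 4 and 5 reads in a library.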
